A study of Mus musculus with 16 samples.

Results

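Loss of Ciita was followed in CD24 dendritic cells from 2 sources, spleen and bone marrow culture. The cells were represented by the 8 arrays, of 16 in the series, whose titles name CD24. Of these, 4 were Ciita -/- (KO, 4 mice) and 4 were Ciita +/+ (WT, 4 mice), with 2 arrays of each genotype in each source. The genotypes were compared with the source as a blocking term and then within each source, over 19938 genes, each read by its probe set with the highest mean. Of 9 measured genes of MHC class II antigen presentation, 8 read lower in every KO array than in every WT array of the same source. Of all genes tested, 598 or 3.0% did so. In the blocked comparison 5 of the 9 passed the test and no other gene did. In spleen alone no gene passed, and in culture alone 5 of the 9 did, beside 2 genes outside that group.

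Ciita is a coactivator that does not bind DNA itself. It joins the RFX, CREB and NF-Y factors already sitting on class II promoters and switches those genes on. The products of these genes load peptides in the endosome and show them to CD4 T cells, the task dendritic cells are best known for. CD24 is a sorting marker of the cross-presenting cDC1 subset, and it is also carried by other leukocytes, neutrophils and B cells among them.

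The sorted cells' RNA was read on Affymetrix Mouse Gene 1.0 ST arrays, which probe exons across the length of a transcript. The 4 groups were spleen CD24 cells of Ciita -/-, Zbtb46 GFP/+ mice, spleen CD24 cells of Ciita +/+, Zbtb46 GFP/+ mice, cultured CD24 cells of Ciita -/-, Zbtb46 GFP/+ mice, and cultured CD24 cells of Ciita +/+, Zbtb46 GFP/+ mice. All mice were of strain B6, and all, controls included, had 1 GFP allele at Zbtb46, a transcription factor of the classical dendritic cell lineage. Spleen cells were taken at homeostasis. Cultured cells grew from whole marrow for 9 days in 5% Flt3l, the growth factor of this lineage, and then received gamma interferon and, for 4 hours, LPS. The time in interferon is given as 16 hours in one place and 22 hours in another. The labels do not say which stretch of Ciita was deleted, and ages are not given. The CD172a arrays, the other sort of the same 8 mice, enter only the comparison of the 2 subsets.

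Values are the authors' log2 signals, so a difference of 1 is a doubling, and all arrays of a source had nearly the same distribution, with medians of 7.31 to 7.32 in spleen and 6.85 to 6.90 in culture. Levels were therefore compared within a source. Of the 12 cDC1 markers, all lay above the median of every array. Their mean level was 12.28 and 12.36 in KO spleen cells, against 12.12 and 12.12 in WT spleen cells. It was 11.05 and 10.67 in KO cultures, against 10.94 and 10.94 in WT cultures. In spleen, 10 of 12 had both KO arrays above both WT arrays, against 3527 of all 19938 genes tested, and none passed. In culture 1 of 12 did, against 3056 of all genes, and 3 of 12 lay below WT in that way, against 3076. Within this list the RNA sensor Tlr3 read 12.39 and 12.25 in KO spleen cells, against 12.14 and 12.18 in WT spleen cells, and 7.75 and 7.53 in KO cultures, against 8.76 and 8.10 in WT cultures. The 11 cDC2 markers had a mean of 7.57 to 7.79 in spleen and 6.63 to 6.75 in culture. Of these, 7 of 11 lay above the median of every spleen array and 3 of 11 above that of every culture array, with Irf4, Ltb and Sirpa above it in both sources. The 7 B cell markers had a mean of 6.82 to 7.02 in spleen and 5.85 to 5.96 in culture, and those above the median of every array of a source were Cd79b and Ms4a1 in spleen and Ighm in culture. Xist lay between 11.82 and 12.14 for spleen and between 4.98 and 5.18 for culture, and the Y-linked Eif2s3y was 3.86 to 3.91 in spleen and 8.28 to 8.66 in culture. Source and sex therefore cannot be told apart, while both genotypes were alike within each source. The duplicate arrays of a group differed with an SD over genes of 0.314 for KO cultures, against 0.167 for WT cultures, and of 0.162 for KO spleen cells, against 0.173 for WT spleen cells. KO cultures also had 323 genes that differed by 1 or more between their 2 arrays, against 11 in WT cultures. The equivalent counts were 24 in KO spleen cells and 9 in WT spleen cells.

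The targeted gene itself did not mark the genotypes in spleen. Ciita read 11.18 and 10.90 in KO spleen cells, against 10.97 and 11.05 in WT spleen cells, and the groups overlapped. In culture it read 9.70 and 8.14 in KO cultures, against 10.51 and 10.85 in WT cultures, both KO arrays below both WT arrays and the second far below the first. Its blocked change was -0.86 ± 0.42 (SE, 4 KO and 4 WT mice) with an adjusted p of 0.958 by limma. A single probe set covered Ciita, and since the deleted stretch is not stated, this reading does not check the labels. Instead, 8 class II genes told the genotypes apart in every array.

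The peptide-binding chains were the first of these. H2-Ab1, the beta chain of I-A, read 11.98 and 12.18 in KO spleen cells, against 13.99 and 13.99 in WT spleen cells, and 11.63 and 11.12 in KO cultures, against 13.85 and 13.77 in WT cultures. Every KO array lay below every WT array of its source, with WT duplicates almost identical in spleen. H2-Ab1 fell by 2.17 ± 0.14 on the log2 scale in the blocked comparison, 4.51-fold, with an adjusted p of 0.00455 by limma. H2-Aa, its alpha partner, read 13.20 and 13.28 in KO spleen cells, against 13.72 and 13.78 in WT spleen cells, and 12.89 and 12.42 in KO cultures, against 13.63 and 13.54 in WT cultures. The groups did not overlap here either, but the change of -0.72 ± 0.12 was small beside that of its partner and did not pass (adjusted p = 0.584 by limma).

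H2-Eb1, the beta chain of I-E, read 11.86 and 12.45 in KO spleen cells, against 14.05 and 14.05 in WT spleen cells, and 10.56 and 9.90 in KO cultures, against 13.73 and 13.70 in WT cultures. No arrays overlapped, the KO arrays of culture were the lowest, and the 2 KO spleen arrays stood apart. Its blocked change of -2.69 ± 0.32 did not pass (adjusted p = 0.0768 by limma), and the residual of that fit takes in the unequal size of the change in the 2 sources. With 1 mean per group, a fit chosen after seeing the data, it passed. H2-Eb2, a second beta chain of the E region, read 7.37 and 6.94 in KO spleen cells, against 8.73 and 8.76 in WT spleen cells, and 5.98 and 5.92 in KO cultures, against 8.40 and 8.47 in WT cultures. KO arrays were again below all WT arrays of their source, and H2-Eb2 fell by 2.04 ± 0.18 (adjusted p = 0.0132 by limma). H2-Ea, the alpha chain of I-E, is not expressed from the allele that B6 mice carry. It read 5.74 and 5.70 in KO spleen cells, against 5.99 and 5.99 in WT spleen cells, and 5.54 and 5.34 in KO cultures, against 5.38 and 5.43 in WT cultures, below the lower quartile of genes in every array. Its change was -0.12 ± 0.078 (adjusted p = 0.958 by limma).

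The genes that prepare class II molecules for peptide showed the same order of arrays. Cd74, the invariant chain that fills the groove until the endosome, read 13.07 and 13.16 in KO spleen cells, against 13.74 and 13.76 in WT spleen cells, and 13.03 and 12.94 in KO cultures, against 13.57 and 13.50 in WT cultures. It fell by 0.59 ± 0.051, 1.51-fold, the smallest of the changes that passed (adjusted p = 0.0132 by limma). H2-DMa, a chain of the exchange factor that swaps the invariant chain remnant for peptide, read 12.55 and 12.65 in KO spleen cells, against 13.45 and 13.44 in WT spleen cells, and 12.22 and 11.87 in KO cultures, against 13.06 and 13.13 in WT cultures. It fell by 0.95 ± 0.086 (adjusted p = 0.0132 by limma). H2-Ob, a chain of the H2-O inhibitor of that exchange factor, read 9.79 and 9.70 in KO spleen cells, against 12.15 and 12.17 in WT spleen cells, and 9.28 and 8.31 in KO cultures, against 11.89 and 12.11 in WT cultures. Its blocked change was the largest of the list, -2.81 ± 0.23 or 7.01-fold (adjusted p = 0.0132 by limma). Its partner H2-Oa read 11.21 and 11.08 in KO spleen cells, against 12.92 and 12.85 in WT spleen cells, and 8.67 and 8.17 in KO cultures, against 11.65 and 11.83 in WT cultures. All 4 KO arrays were below the WT arrays of their source, and the change was -2.53 ± 0.30 (adjusted p = 0.0768 by limma). H2-DMb1 and H2-DMb2 had no probe set with 1 gene symbol and were left out of the gene tests.

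**Figure D1:**
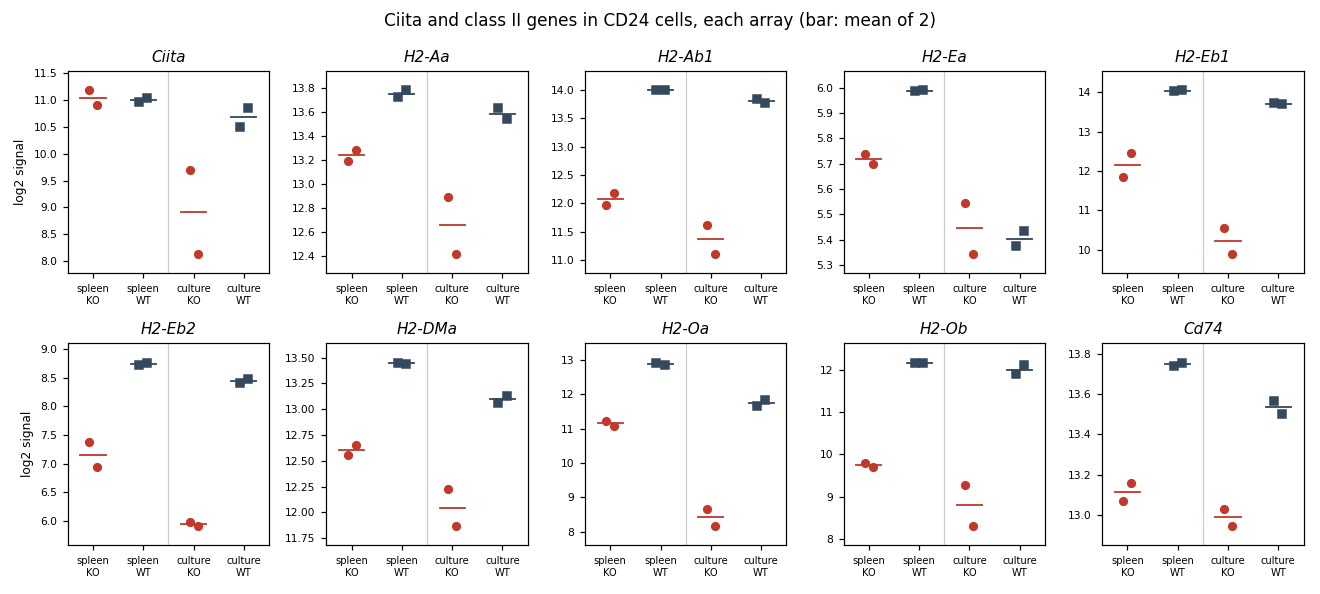
Log2 signal (y axis, a separate range for each gene) of Ciita and the 9 measured class II genes in each of the 8 CD24 arrays, with KO as red circles, WT as dark squares and bars at the mean of 2 arrays. KO arrays sit below WT arrays in both sources for 8 of 9 class II genes, while Ciita overlaps in spleen and H2-Ea in culture.

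In all, 5 genes passed in the blocked comparison, 0.0251% of those tested, and all 5 were lower in KO cells and were class II genes (H2-Ab1, H2-Ob, Cd74, H2-Eb2 and H2-DMa). At an unadjusted p under 0.05 there were 856 genes, 400 lower and 456 higher. The class II list had 8 of 9 members below WT without overlap in both sources, against 598 of all genes tested or 3.0%, and 576 or 2.89% lay above WT in that way. Its median change was -2.04, against 0.002 for all genes tested. The number passing depended on single libraries: it was 1 without spleen KO array 2, either spleen WT array or either culture WT array, 2 without spleen KO array 1 and 9 without culture KO array 2, and H2-Ab1 passed each time. With 4 against 4 arrays, exact permutation within source (2-sided) cannot go below p = 0.0556, the value that H2-Eb1 and H2-Oa reached. Every gene without overlap in the same direction in both sources, the 598 lower and 576 higher ones, reaches it by construction. This value therefore does not set these 2 genes apart.

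The RefSeq promoter windows (GRCm38.p6) of the class II genes were searched for a pair of elements. Known class II promoters carry an X box, bound by RFX, and a Y box, bound by NF-Y, at a fixed distance. Of the 9 measured class II genes, 6 had a window of 250 bases before to 50 after the start. A pair of GCAAC and, 25 to 28 bases on, ATTGG, was chosen after these windows had been seen. The pair was searched on both strands, and in the 5 class II genes below it lay on the gene's own strand. It stood in the windows of H2-Aa, H2-Eb1, H2-Eb2, H2-Oa and H2-Ob, shown 5′ to 3′ with the 2 elements in capitals because they are the stretch on which Ciita is known to act.
H2-Aa, chr17:34287842-34287929, minus strand: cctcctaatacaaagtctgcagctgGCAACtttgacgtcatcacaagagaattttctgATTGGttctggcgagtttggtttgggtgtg
H2-Eb1, chr17:34305751-34305837, plus strand: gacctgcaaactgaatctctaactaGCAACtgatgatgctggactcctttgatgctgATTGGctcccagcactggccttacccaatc
H2-Eb2, chr17:34325518-34325604, plus strand: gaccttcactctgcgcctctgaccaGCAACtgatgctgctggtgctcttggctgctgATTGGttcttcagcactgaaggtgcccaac
H2-Oa, chr17:34092278-34092365, plus strand: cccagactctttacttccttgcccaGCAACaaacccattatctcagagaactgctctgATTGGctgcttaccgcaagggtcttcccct
H2-Ob, chr17:34238793-34238877, plus strand: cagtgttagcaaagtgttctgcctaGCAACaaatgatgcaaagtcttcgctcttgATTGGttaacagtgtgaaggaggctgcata
The first element began 76 bases before the start in H2-Oa, 81 in H2-Aa, 87 in H2-Ob, 91 in H2-Eb1 and 132 in H2-Eb2. H2-DMa had windows in which these letters were not found. H2-Ab1, Cd74 and H2-Ea had no entry. The pair occurred in 66 of 32851 windows (0.201%), which belonged to 62 genes, 41 of them tested here. Of the 5 genes that passed in the blocked comparison, 2 held the pair, H2-Eb2 and H2-Ob. The 5 class II genes among those 41 had a median blocked change of -2.53. The other 36 had a median of 0.002 and a range from -0.34 to 0.46. Of them, 16 were below 0, against 9697 of all 19938 genes tested.

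Within spleen, no gene passed when the 8 arrays shared 1 estimate of spread (0%, 710 genes at an unadjusted p under 0.05 by limma). The number was 3 when only the 4 spleen arrays were fitted (H2-Ob, H2-Oa and H2-Ab1) and 12 when all 16 arrays were, and it was 7 without either KO culture array. All 9 class II genes lay below WT without overlap in spleen, against 16.4% of all genes tested, with changes from -2.41 for H2-Ob to -0.27 for H2-Ea and a median of -1.58. The lowest adjusted p was 0.059, for H2-Ab1 (-1.91 ± 0.16) and H2-Eb2 (-1.58 ± 0.13).

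Within culture, 7 genes passed, all lower in KO cells (0.0351%, 997 genes at an unadjusted p under 0.05 by limma). Of these, 5 were class II genes. H2-Eb1 fell by 3.49 ± 0.24 or 11.2-fold (adjusted p = 0.00811), H2-Oa fell by 3.32 ± 0.16 or 10-fold (adjusted p = 0.00255) and H2-Ob fell by 3.21 ± 0.27 (adjusted p = 0.025). H2-Eb2 fell by 2.49 ± 0.13 (adjusted p = 0.00259), as H2-Ab1 fell by 2.44 ± 0.16 (adjusted p = 0.00748). The other 2 were Sdf2l1 and Pdia4, genes of protein folding in the endoplasmic reticulum (ER). Without overlap, 8 of 9 class II genes lay below WT in culture, against 15.4% of all genes tested. The number passing was 0 without either WT culture array, 4 without either KO spleen array, 2 without either WT spleen array, 1 with only the 4 culture arrays and 757 without KO culture array 1, when array 2 alone stood for the KO cultures.

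The KO minus WT difference in culture minus that in spleen was -1.59 ± 0.34 for H2-Eb1 and -1.58 ± 0.23 for H2-Oa, but no gene passed the test of the difference between sources (0%, 745 genes at an unadjusted p under 0.05 by limma). The adjusted p of both was 0.998, and without KO culture array 1 the number passing was 151. For Cd74 this value was 0.09 ± 0.10. Over 19928 genes, with Ciita and the class II list left out, the KO minus WT differences of the 2 sources had a Pearson r of 0.029, a description across genes that are not independent.

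**Figure D2:**
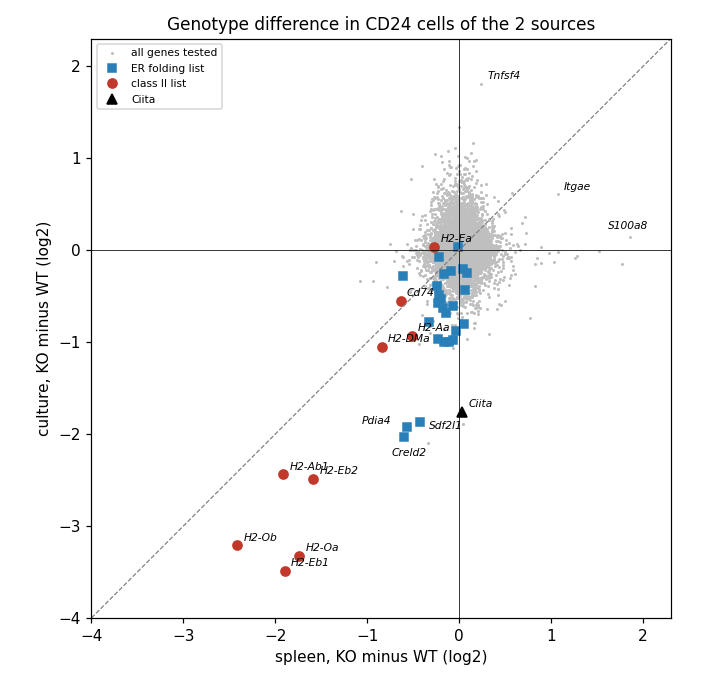
KO minus WT in spleen (x axis) against KO minus WT in culture (y axis), both on the log2 scale, for the 19938 genes tested, with the class II list in red, the ER folding list in blue, Ciita as a black triangle and a dashed line of equal change. The 8 lower class II genes lie in the lower left and most below the line, and the ER folding genes have a median of -0.17 in spleen and -0.60 in culture.

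The CD172a cells of the same mice, the sort used for the cDC2 subset, were set against the CD24 cells. H2-Aa had the largest difference. In KO mice its level in CD24 cells was above that in CD172a cells by 2.09 and 1.92 in spleen and by 3.02 and 2.64 in culture, against -0.14 and -0.04 in WT spleens and 0.11 and 0.03 in WT cultures. WT mice thus had about equal H2-Aa signal in both subsets, and all 4 KO mice had more in CD24 cells. The WT signals, 13.51 to 13.86 over both sorts, lay near the highest signal of any CD24 array (14.2 to 14.5). Whether signals level off there was not tested. The KO minus WT difference of CD24 minus CD172a was 2.43 ± 0.14 (SE, 4 KO and 4 WT mice, adjusted p = 0.000204 by limma).

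H2-Eb1 followed the same order. Its CD24 minus CD172a values were 1.19 and 1.29 in KO spleens and 2.54 and 2.00 in KO cultures, against -0.03 and 0.01 in WT spleens and 0.25 and 0.23 in WT cultures, and the difference was 1.64 ± 0.16 (adjusted p = 0.0164 by limma). These were the 2 genes that passed (0.0100%, 1023 at an unadjusted p under 0.05). H2-Aa passed in all 11 other settings and H2-Eb1 in 6 of 11. Leaving out a mouse with both its arrays, 1 gene was left without KO spleen mouse 1, WT spleen mouse 1 or either WT culture mouse. The KO minus WT change of H2-Aa was -0.51 in CD24 cells and -2.61 in CD172a cells of spleen, and -0.93 in CD24 cells and -3.69 in CD172a cells of culture. H2-DMa (1.29 ± 0.30, adjusted p = 0.940 by limma) and H2-Ab1 (1.03 ± 0.16, adjusted p = 0.397 by limma) did not pass. H2-Oa had the opposite sign, -0.42 ± 0.13 (adjusted p = 0.940 by limma).

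**Figure D3:**
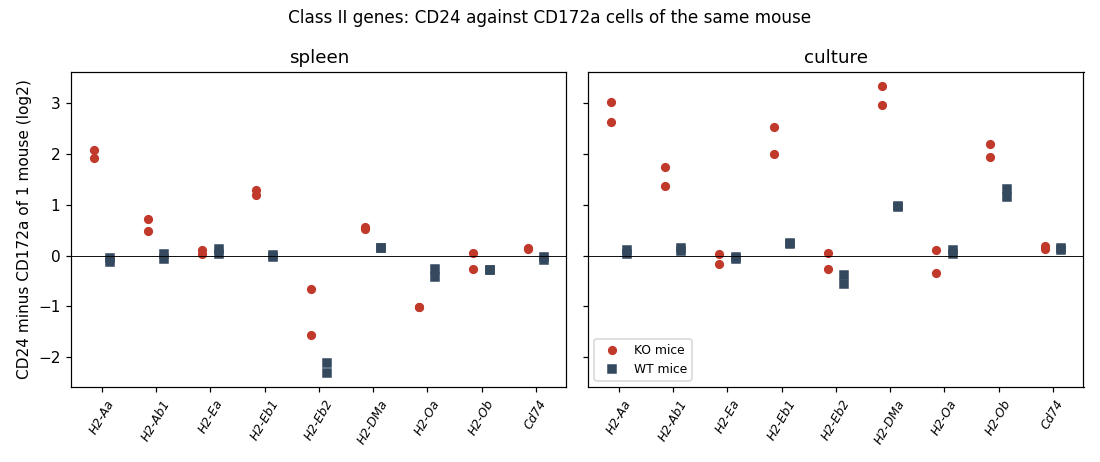
CD24 minus CD172a log2 signal within each mouse (y axis) for the 9 measured class II genes (x axis), in spleen and in culture, with KO mice as red circles and WT mice as dark squares. For H2-Aa the KO mice sit between 1.92 and 3.02 and the WT mice between -0.14 and 0.11.

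The ER folding and unfolded protein response list had mostly lower values in KO cells. These genes encode chaperones, disulfide isomerases and degradation factors that handle new proteins in the ER. Of 25 measured, none passed in the blocked comparison. At an unadjusted p under 0.05 by limma 18 were lower, against 400 of all 19938 genes tested. A change below 0 was found for 24, against 9697 of all genes, and the median was -0.40, against 0.002. Without overlap in both sources, 15 of 25 lay below WT, against 3.0% of all genes. The list was chosen with earlier results of these data known and its genes are not independent, so these counts are not a test. The median was -0.17 in spleen and -0.60 in culture.

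Pdia4, a disulfide isomerase, read 10.03 and 9.98 in KO spleen cells, against 10.50 and 10.64 in WT spleen cells, and 8.18 and 7.75 in KO cultures, against 9.67 and 10.11 in WT cultures. KO arrays were below WT arrays in both sources, and it fell in culture by 1.93 ± 0.18 or 3.8-fold (adjusted p = 0.0343 by limma). Sdf2l1, part of an ER chaperone complex, read 11.09 and 10.96 in KO spleen cells, against 11.53 and 11.37 in WT spleen cells, and 9.27 and 8.86 in KO cultures, against 10.75 and 11.13 in WT cultures. The order was the same, and it fell in culture by 1.87 ± 0.17 (adjusted p = 0.0337 by limma). Creld2, an ER stress gene, read 10.83 and 11.002 in KO spleen cells, against 11.59 and 11.46 in WT spleen cells, and 9.57 and 8.96 in KO cultures, against 11.01 and 11.60 in WT cultures. Its groups did not overlap, and its change of -2.04 ± 0.24 in culture did not pass (adjusted p = 0.125 by limma). In spleen the changes of these genes were -0.56, -0.43 and -0.60 (Pdia4, Sdf2l1, Creld2), each with an adjusted p of 1.0 by limma. Derl3, a factor of ER-associated degradation that plasma cells also express, had a larger difference in spleen (-0.61) than in culture (-0.28). Hspa5, the central ER chaperone, had differences of -0.072 in spleen and -0.60 in culture, and the cofactor Manf of -0.33 and -0.78, none past the threshold.

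Single libraries moved with this group. KO culture array 2 was the lowest of the 4 culture arrays for 23 of 25 genes, and WT culture array 2 was the highest for 23 of 25. The list's mean was 10.26 and 9.92 in KO cultures, against 10.69 and 10.91 in WT cultures, and 10.74 and 10.74 in KO spleen cells, against 10.95 and 10.91 in WT spleen cells. Without KO culture array 2 the culture median was -0.46 and no member passed. Without KO culture array 1 it was -0.85 and 17 of 25 passed, in a setting with 1 KO culture array in which 3.8% of all genes tested (757) did. Over the 20 other settings, Pdia4 passed in culture in 8 and Sdf2l1 in 9. Over 19928 genes outside class II, the culture KO minus WT difference, which shares these arrays, had a Pearson r of 0.518 with KO array 2 minus KO array 1 and of -0.456 with WT array 2 minus WT array 1, against 0.025 and -0.187 for the same measures in spleen. The part of this spread in the ER result was not tested.

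**Figure D4:**
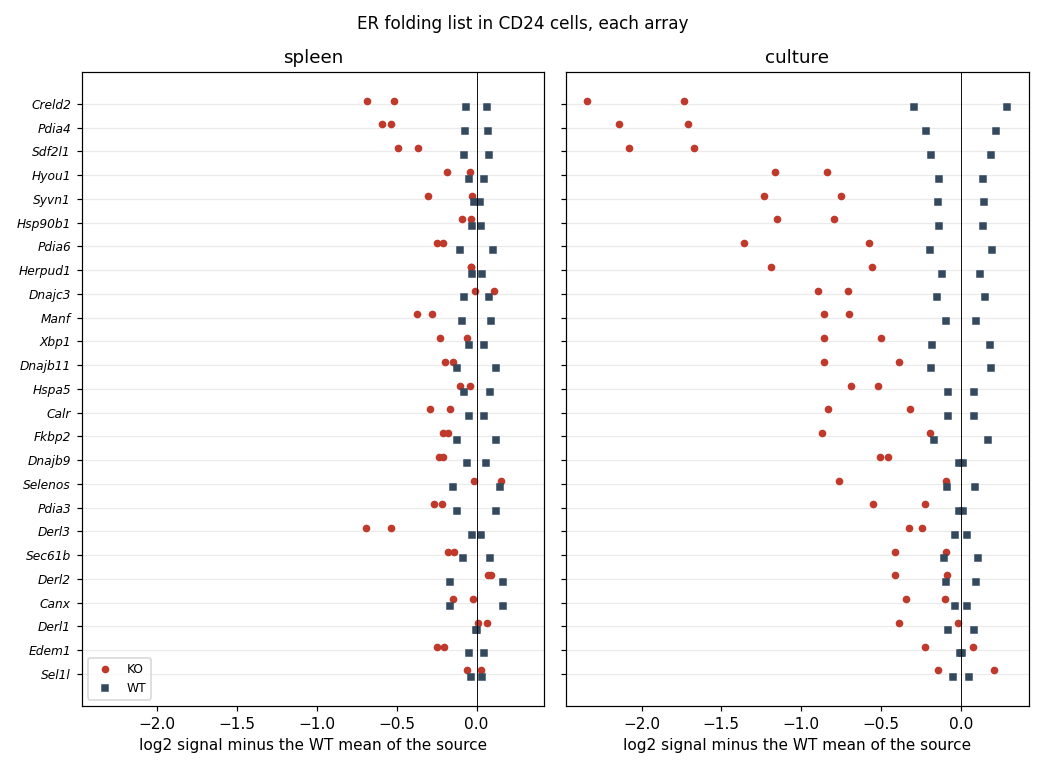
Log2 signal minus the WT mean of the source (x axis) for the 25 ER folding genes (rows), in spleen on the left and culture on the right, with KO arrays as red circles and WT arrays as dark squares. Creld2, Pdia4 and Sdf2l1 lie furthest left in culture.

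An ER stress response element, CCAAT and, 9 bases on, CCACG, was searched on both strands of the same windows. It is the pair through which the stress factors Atf6 and Xbp1 are known to act. It stood in 39 of 32851 windows (0.119%), of 37 genes, and in 9 of the 22 ER folding genes with a window. These are the windows of 4 such genes, with the 2 elements in capitals (CGTGG and ATTGG where the pair lies on the opposite strand), shown as examples.
Creld2, chr15:88819495-88819563, plus strand: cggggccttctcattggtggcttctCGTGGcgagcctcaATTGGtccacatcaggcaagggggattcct
Pdia6, chr12:17266466-17266534, plus strand: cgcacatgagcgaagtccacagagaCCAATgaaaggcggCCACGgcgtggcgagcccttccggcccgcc
Derl3, chr10:75893217-75893285, plus strand: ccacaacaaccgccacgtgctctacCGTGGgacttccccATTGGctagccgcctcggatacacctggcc
Hspa5, chr2:34772000-34772068, plus strand: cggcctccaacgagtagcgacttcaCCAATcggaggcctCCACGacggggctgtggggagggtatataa
The blocked changes of these genes were -1.32 for Creld2, -0.60 for Pdia6, -0.45 for Derl3 and -0.34 for Hspa5. The 9 list members with the pair had a median change of -0.45, and the 13 with a window in which these letters were not found had one of -0.35. Pdia4 and Sdf2l1, the members that passed in culture, were among those 13. The 12 other tested genes with it had a median of -0.02 and a range from -0.27 to 0.07.

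Outside these groups, the 10 largest falls and 10 largest rises without overlap were looked at, and apart from Pdia4 and Sdf2l1 in culture none passed in any comparison of genotypes. Besides Creld2, Pdia4, Sdf2l1 and Pdia6, the lower side held Vmn2r90, a vomeronasal receptor gene whose family has near-identical copies (-1.22 ± 0.35), the calcium-binding Nucb2 (-0.73 ± 0.25), the uncharacterized 4930503L19Rik (-0.71 ± 0.16), the nonclassical class I gene H2-M2 (-0.64 ± 0.13), the stress factor Ddit3 (-0.61 ± 0.17) and the amidase Ntan1 (-0.59 ± 0.12). H2-M2 lies on chromosome 17 with the class II genes. It read 8.06 and 7.998 in KO spleen cells, against 8.99 and 8.96 in WT spleen cells, and 7.07 and 7.41 in KO cultures, against 7.59 and 7.56 in WT cultures. The gap was wide in spleen and narrow in culture. 4930503L19Rik, on chromosome 18, read 7.53 and 7.34 in KO spleen cells, against 8.40 and 8.62 in WT spleen cells, and 8.38 and 8.25 in KO cultures, against 8.51 and 8.79 in WT cultures. It had the same shape, with its larger difference in spleen (-1.08, adjusted p = 0.192 by limma).

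On the higher side, Tcof1, a ribosome biogenesis gene on chromosome 18, as is Cd74, had the lowest p of the 10. It read 9.97 and 9.87 in KO spleen cells, against 9.32 and 9.53 in WT spleen cells, and 9.07 and 8.91 in KO cultures, against 8.59 and 8.56 in WT cultures. Both KO pairs lay above their WT pairs, a difference of 0.46 ± 0.066 that did not pass (adjusted p = 0.271 by limma). Itgae, the CD103 integrin of cDC1, read 11.02 and 11.62 in KO spleen cells, against 10.23 and 10.26 in WT spleen cells, and 9.49 and 9.63 in KO cultures, against 9.37 and 8.53 in WT cultures. Its difference was 0.84 ± 0.20 (adjusted p = 0.958 by limma). Tnfsf4, the OX40 ligand, read 6.13 and 5.94 in KO spleen cells, against 5.71 and 5.88 in WT spleen cells, and 6.68 and 8.76 in KO cultures, against 5.97 and 5.86 in WT cultures, with KO culture array 2 far above the rest, and its difference was 1.03 ± 0.46. The other 7 were the actin factor Dstn, Tspan13, arginase Arg2, the protease subunit Psen2, the junction protein Jup, the interferon gene Ifi27l2a and the actin regulator Mtss1, with differences from 0.46 to 0.60. The 15 measured genes listed as neighbours of Ciita, on chromosome 16, had a median blocked difference of -0.03, and none passed. Clec16a differed most, by 0.40 ± 0.094 (adjusted p = 0.958 by limma), and Txndc11 next, by -0.26 ± 0.10 (adjusted p = 0.958 by limma). Dexi, between Ciita and Clec16a, read 7.86 and 8.09 in KO spleen cells, against 8.07 and 8.02 in WT spleen cells, with overlap. Outside that list, Ntan1 (-0.59 ± 0.12, adjusted p = 0.958 by limma) and Sdf2l1, which passed in culture, also lie on chromosome 16. Linkage to the targeted allele was not tested.

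Of the 32 lists, all chosen with earlier results of these data known, class II was the only one with a gene past the threshold in the blocked comparison. In culture the ER folding list was the other one with any. The factors that bind class II promoters were near 0, with a median of -0.002 over 12 genes, and the RFX subunit Rfx5 had the largest difference (-0.31 ± 0.069, adjusted p = 0.958 by limma). The 14 genes reported elsewhere as Ciita targets outside class II had a median of 0.04, and the lysosomal peptidase Tpp1 differed most (0.24 ± 0.074). The 15 class I presentation genes had a median of 0.05, the 11 peptide loading and turnover genes 0.07, the 16 maturation genes 0.07 and the 17 type I interferon genes 0.11. All 12 cholesterol synthesis genes were below 0, against 9697 of all 19938 genes tested, with a median of -0.34, but none passed. Their mean was 10.07 and 9.18 in KO cultures, against 9.99 and 10.37 in WT cultures, so that KO array 1 lay between the WT arrays and KO array 2 below them.

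Markers of other cells set single arrays apart, and Camp, Car1, Xcr1 and Sirpa are named for this after their values were seen. Of the 12 neutrophil genes, the mean level was 6.98 and 8.48 in KO spleen cells, against 7.15 and 6.42 in WT spleen cells, and 5.77 and 5.88 in KO cultures, against 5.89 and 5.87 in WT cultures. S100a8 read 7.91 and 10.07 in KO spleen cells, against 8.06 and 6.21 in WT spleen cells. Ngp read 7.63 and 10.51 in KO spleen cells, against 8.68 and 5.91 in WT spleen cells. Camp read 7.74 and 10.14 in KO spleen cells, against 8.27 and 7.04 in WT spleen cells, and the erythroid enzyme Car1 read 7.53 and 10.23 in KO spleen cells, against 8.40 and 8.50 in WT spleen cells. KO spleen array 2 was thus the highest for all 4, and the genotypes overlapped for these 4 genes. In the whole neutrophil list, 5 of 12 lay above WT without overlap in spleen, against 3527 of all 19938 genes tested. Its median difference in spleen was 0.96, against 0.004 for all genes, and none passed. The erythroid gene Alas2 did not peak in that array, with 6.44 and 6.55 in KO spleen cells, against 6.58 and 6.51 in WT spleen cells. In culture, Xcr1, the chemokine receptor of cDC1, read 10.84 and 9.58 in KO cultures, against 10.40 and 10.87 in WT cultures, and Sirpa, the CD172a antigen, read 8.36 and 9.17 in KO cultures, against 8.38 and 8.43 in WT cultures. KO culture array 2 had the least Xcr1 and the most Sirpa. The cDC1 list's mean was also lowest there, while the cDC2 list's mean was 6.69 and 6.75 in KO cultures, against 6.68 and 6.63 in WT cultures. Not all members followed: in that array the cDC1 marker Itgae was highest of the culture arrays (9.63) and the cDC2 marker Cx3cr1 lowest (6.87). The part of these levels in the genotype results was not tested. In bulk RNA, fewer cells of a type and less RNA per cell cannot be told apart. Without both KO arrays numbered 2, a choice made after seeing the data, the blocked comparison passed 4 genes, the spleen one 5 and the culture one 5, all lower class II genes.

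**Figure D5:**
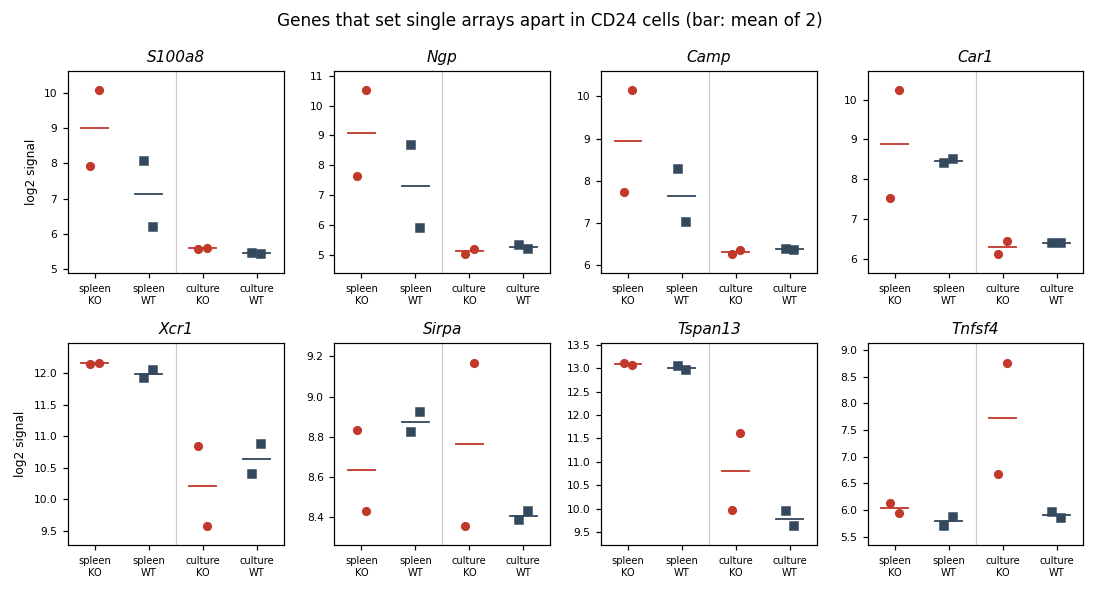
Log2 signal (y axis, a separate range for each gene) of 8 genes in each CD24 array, with KO as red circles, WT as dark squares and bars at the mean of 2 arrays. S100a8, Ngp, Camp and Car1 peak in the second KO spleen array, and Xcr1, Sirpa, Tspan13 and Tnfsf4 set the second KO culture array apart.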

How the data were processed

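The deposited values are the authors' log2 signals, 1 for each probe set. The sources used here do not state how they were background-corrected, normalized and summarized, and the log2 unit was taken from their range. Per the labels, RNA came from EZNA MicroElute columns, was cleared of DNA with TURBO DNase and was amplified by Ovation Pico WTA. Of 30177 probe sets, 21789 had 1 gene symbol, 1621 several and 6767 none. The last 2 kinds were left out of the main tests. For 999 genes with more than 1 probe set, that with the highest mean was used, which left 19938 genes.

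limma 3.58.1 in R 4.3.3 gave KO minus WT over 8 arrays with source as a block (5 residual and 3.19 prior degrees of freedom), each source and their difference from 4 group means (4 and 3.11), and CD24 minus CD172a from within-mouse differences (5 and 4.96). P-values were 2-sided, Benjamini-Hochberg adjusted over 19938 genes, threshold 0.05. Scripts were tested on simulated data. KO and WT mice were different animals. Same-numbered arrays had deviations that correlated at -0.088 in spleen and -0.555 in culture, so numbers did not pair them. Deviations mirror each other within a group of 2, so in culture KO array 1 varied with WT array 2. The source of this shared variation was not tested. The number of arrays limits the precision. Promoters are RefSeq's.

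The members and gene lists were chosen with earlier results of these data known. Named genes are Ciita, the class II list, genes past the threshold, the 10 largest rises and falls without overlap, the 2 largest differences of each other list and the cell markers. Alternatives covered normalization, filters, probe set choice, variance models, the arrays fitted, the block and leaving out each array, or each mouse for the CD24 minus CD172a difference.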

Additional observations from a re-analysis of the deposited data

Results flagged for a closer look

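The effect of genotype on H2-Aa differed between the sorts of the same mice, by 2.43 (CD24 minus CD172a, log2) by the test of the difference itself, with the 4 KO mice all above the 4 WT mice. For H2-Eb1 the difference was 1.64, with the same separation of mice. In both, CD24 cells kept more of the transcript in KO mice. Groups held 2 arrays, so single arrays could not be tested as outliers. No cause was tested.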

How the results depend on the processing

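The blocked comparison passed 5 genes and between 5 and 7 under median centring, quantile normalization, a filter at the median level, other variance models, all probe sets, means of probe sets or 1 mean per group. It passed 0 without the source term, 17 with 16 arrays, 0 with the replicate block and 1 to 9 with 1 array left out. Spleen passed 0, against 12 with 16 arrays, 3 with its 4 arrays alone, 4 after quantile normalization, 2 with the filter, 3 with a variance trend, 3 with a robust trend, 1 with all probe sets, 5 without both KO arrays numbered 2 and 0 to 7 with 1 array left out. Culture passed 7, against 19 with 16 arrays, 1 with its 4 arrays alone, 0 with the replicate block and 0 to 757 with 1 array left out. The difference between sources passed 0, against 1 with 16 arrays, 1 with all probe sets and 0 to 151 with 1 array left out, the highest without KO culture array 1. The CD24 minus CD172a difference passed 2, against 3 with 16 arrays in 1 fit, 4 with 1 mean per group and 1 to 2 with 1 mouse left out. Crossing the culture numbers in the pairing, added after seeing the data, passed 3 in the blocked comparison, 4 in spleen and 17 in culture. No setting moved the median of all genes by more than 0.02 in the blocked, spleen or culture comparison. Of 2235 recomputed values of named genes, 22 turned their sign, none of a gene that passed, and of the class II genes only H2-Ea in culture did (-0.059 to 0.14 with 1 array left out). The others were, in the blocked comparison with 1 array left out, -0.35 to 0.026 for Bcl11a, -0.43 to 0.057 for C1qa, -0.44 to 0.64 for Car1, -0.51 to 0.10 for Ccl3, -0.32 to 0.06 for Cd68, 0.013 to 0.61 for Cxcl2, -0.002 to 0.37 for Iigp1, -0.032 to 0.13 for Pfkp, -0.31 to 0.01 for Pgam1, -0.12 to 0.024 for Rpl13, -0.14 to 0.42 for Spib, -0.40 to 0.083 for Top2a. Without both KO arrays numbered 2 the values that turned were Bcl11a 0.15, Cxcl2 -0.008, Ccl3 0.11, Top2a 0.10, Car1 -0.60, Pgam1 0.011, Cd68 0.068, Spib -0.097, Rpl13 0.02. Causes were not tested.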

Other observations

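Among probe sets left out of the gene tests, 2 passed when all probe sets were tested. Probe set 10341652, which has no gene symbol, read 9.36 and 9.42 in KO spleen cells, against 10.63 and 10.57 in WT spleen cells, and 8.71 and 8.95 in KO cultures, against 10.36 and 10.17 in WT cultures. Its blocked difference was -1.32 ± 0.08 (adjusted p = 0.00469 by limma). Probe set 10444236, annotated with several symbols, read 10.68 and 10.75 in KO spleen cells, against 12.64 and 12.54 in WT spleen cells, and 8.19 and 7.98 in KO cultures, against 12.24 and 12.26 in WT cultures. Its KO minus WT difference was -1.87 ± 0.09 in spleen (adjusted p = 0.00535 by limma) and -4.16 in culture (adjusted p = 2.11e-05 by limma), and was the 1 probe set to pass in spleen under that setting.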
